A study of Ovis aries with 15 samples.

Results

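Ketamine was compared with saline vehicle in fetal sheep that had been through a period of hypoxia, by gene expression in the kidney cortex. The arrays were chosen by their sample titles alone: 4 arrays of hypoxic fetuses given ketamine and 4 of hypoxic fetuses given vehicle. These are 8 of the 15 arrays of the series, each taken as a different fetus by its replicate number. The fetuses carried indwelling catheters and were 125 ± 3 d old, where term is 145 to 147 d. In both groups the ewe was ventilated so as to lower fetal oxygen for 30 min. Ketamine (3 mg/kg) went into a vein of the fetus 10 min before that, the vehicle fetuses received saline, and cortex was frozen 24 h after the onset. The other 7 fetuses stayed normoxic and had vehicle (3) or ketamine (4), and they are used here for the spread of the measurements and to ask whether the drug acted differently without hypoxia. The title of the series poses the question, whether the drug alters inflammatory gene expression after fetal hypoxia.

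Ketamine is an anaesthetic that blocks glutamate receptors of the NMDA type. Low oxygen stabilises hypoxia-inducible factors, which switch on glucose transporters, glycolytic enzymes and VEGFA. Hypoxia and reoxygenation can also activate NF-kB and AP-1, transcription factors that drive cytokines such as TNF and interleukin 1, neutrophil-attracting chemokines and leukocyte adhesion molecules. In the kidney such signals come from tubular epithelium, endothelium and resident or arriving leukocytes. The tissue was bulk cortex, so fewer cells of a type and less RNA per cell cannot be told apart.

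Genes lower with ketamine in hypoxic fetuses included cytokine, chemokine and AP-1 genes. TNF was 6.26-fold, IL1B 6.56-fold, CXCL8 9.93-fold, JUNB 4.47-fold, NFKBIA 3.01-fold and the glucose transporter SLC2A3 2.78-fold lower than with vehicle. IL13RA1, an interleukin 13 receptor chain, was 1.83-fold lower with no overlap between the groups. SNAI2, a transcription factor of the mesenchyme, was 1.95-fold higher. All of these passed the threshold the study used (p of at most 0.05 without adjustment, in limma), and none passed after Benjamini-Hochberg adjustment over all probes (adjusted p = 0.80 for each). Below, "rose" and "fell" refer to the unadjusted threshold. Differences are on the log2 scale, ketamine minus vehicle, with the limma SE after ±, and levels are given as a percent of the array's own 75th percentile signal.

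The arrays were of similar brightness, with a 75th percentile of 1064 to 1394 intensity units. Of the probes 75.4% to 85.0% were well above background (81.0% or more without hypoxia ketamine replicate 4). On that array the lowest signal well above background was 1.59% of the 75th percentile, against 0.54% to 0.97% on the other 7 hypoxic arrays. The dim genes TGFB3 (1.13%) and SLC9A3 (1.29%) read below that limit there. Spread was wider after hypoxia, with a median probe SD of 0.29 (vehicle) and 0.24 (ketamine) against 0.18 and 0.21 in normoxia. Each SE uses the variance pooled over the 4 groups and can therefore be too small for the hypoxic ones and too large for the normoxic ones. The sample titles give a replicate number and no animal identifier. Each array is taken as a separate fetus, and the spread as that between animals. The barcodes in the file headers place the arrays on slides 1 and 2. Slide 1 held replicates 2 and 4 of both hypoxic groups, and slide 2 held replicates 1 and 3. A within-slide difference below thus compares 2 ketamine with 2 vehicle arrays, and its SE also draws on the normoxic arrays of that slide. Hypoxia vehicle replicate 4 and hypoxia ketamine replicate 2 stood furthest from their groups, with limma array weights of 0.32 and 0.45, and the latter also carried signal for placental lactogen (1.38%, against at most 0.42% on the other 7 hypoxic arrays). Tubular genes were present as in kidney cortex: the phosphate transporter SLC34A1 read 712% to 1347%, the water channel AQP2 27.4% to 49.5% and the corticosteroid-inactivating enzyme HSD11B2 3256% to 7180% over the 8 arrays. The podocyte and nephron progenitor gene WT1 read 313% to 449%. The array holds no probe named for any of the B cell markers searched.

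Each gene was read by 60-base probes, and the stretches below show what was measured for the genes that carry the comparison and how far 2 probes of a gene are separate measurements. Each line gives 30 bases in the probe's own orientation, with capitals for bases that the 2 probes of a gene share.
TNF: tgcctgtaaccgccctactggtcagtggcg
IL1B: cgttttagaggtggccaggatataactgac
CXCL8, probe 1: CTTGCCCTTATTATGCAATGatgtgttgaa
CXCL8, probe 2: ctggcctagtCTTGCCCTTATTATGCAATG
JUNB, probe 1: AAGGGACACGCCTTCTGACGCCCCTTATCC
JUNB, probe 2: cAAGGGACACGCCTTCTGACGCCCCTTATC
SLC2A3, probe 1: ggaatttttcccagttctcagtgaccaggt
SLC2A3, probe 2: attttggttctaagttctcaccattccctc
NFKBIA: tgtctgcacttggcctctattcatggctac
SNAI2, probe 1: AAGGCATTTTGTCTTGTGCTGACAACCCAA
SNAI2, probe 2: tAAGGCATTTTGTCTTGTGCTGACAACCCA
The 2 probes of IL13RA1 lie in a record the array annotates as partial coding sequence and are shown whole.
IL13RA1, probe 1: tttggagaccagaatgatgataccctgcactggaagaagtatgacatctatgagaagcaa
IL13RA1, probe 2: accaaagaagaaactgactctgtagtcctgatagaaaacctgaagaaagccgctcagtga
The probes of IL13RA1 share no stretch, and neither do those of SLC2A3. They gave -0.87 and -1.18 for IL13RA1 and -1.47 and -1.53 for SLC2A3, all past the threshold. The probes of CXCL8 share 20 of 60 bases and gave -3.58 and -3.31. Those of JUNB (-2.16 and -2.11) and of SNAI2 (0.97 and 0.90) share 59 of 60, so the second adds little to the first. The probe with the highest mean signal stands for each gene below. It did not always match the others. Second probes of MYD88 (-0.30), SLC9A3 (-0.54), TGFB3 (-0.81) and FGF7 (-0.66) did not pass, and of 4 probes of FOS 2 passed. Second probes of JUN (-1.60) and ZFP36 (-2.59) passed with larger differences than those given below.

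Of 12923 probes tested, 334 were higher with ketamine (2.58%) and 451 lower (3.49%), 785 in all (6.07%). After adjustment in limma 0 remained (smallest adjusted p = 0.80). In normoxic fetuses 350 probes passed (2.71%; 0.952% higher and 1.76% lower). The difference between the effects in hypoxic and normoxic fetuses passed for 407 (3.15%; 2.05% higher and 1.1% lower), again 0 after adjustment in limma (smallest adjusted p = 0.989). Among the 833 genes with a name, 60 passed (7.2%), of which 11 rose (1.32%) and 49 fell (5.88%), and their median difference was -0.02, against 0.02 for all probes. The excess of lower over higher calls depended on the scaling: 57.5% of called probes were lower here, 49.6% after quantile normalization, 48.2% in the authors' deposited values and 46.1% with normexp background correction, which moved the median of all probes to 0.12. With only the 8 hypoxic arrays in the model 431 probes passed. Without hypoxia ketamine replicate 2 the count was 1606, without hypoxia vehicle replicate 2 it was 1552, and without hypoxia ketamine replicate 4 it was 486.

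Most of the genes that fell shared a pattern over the fetuses, and so did most probes called lower. In 36 of the 49 (73.5%), hypoxia vehicle replicates 1 and 4 were the 2 highest vehicle arrays. That held for 58.8% of the 451 probes called lower and 17.6% of all probes tested. In 37 of the 49 (75.5%), hypoxia ketamine replicate 2 was the highest ketamine array, against 60.1% of the 451 and 33.5% of all probes.

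**Figure D1:**
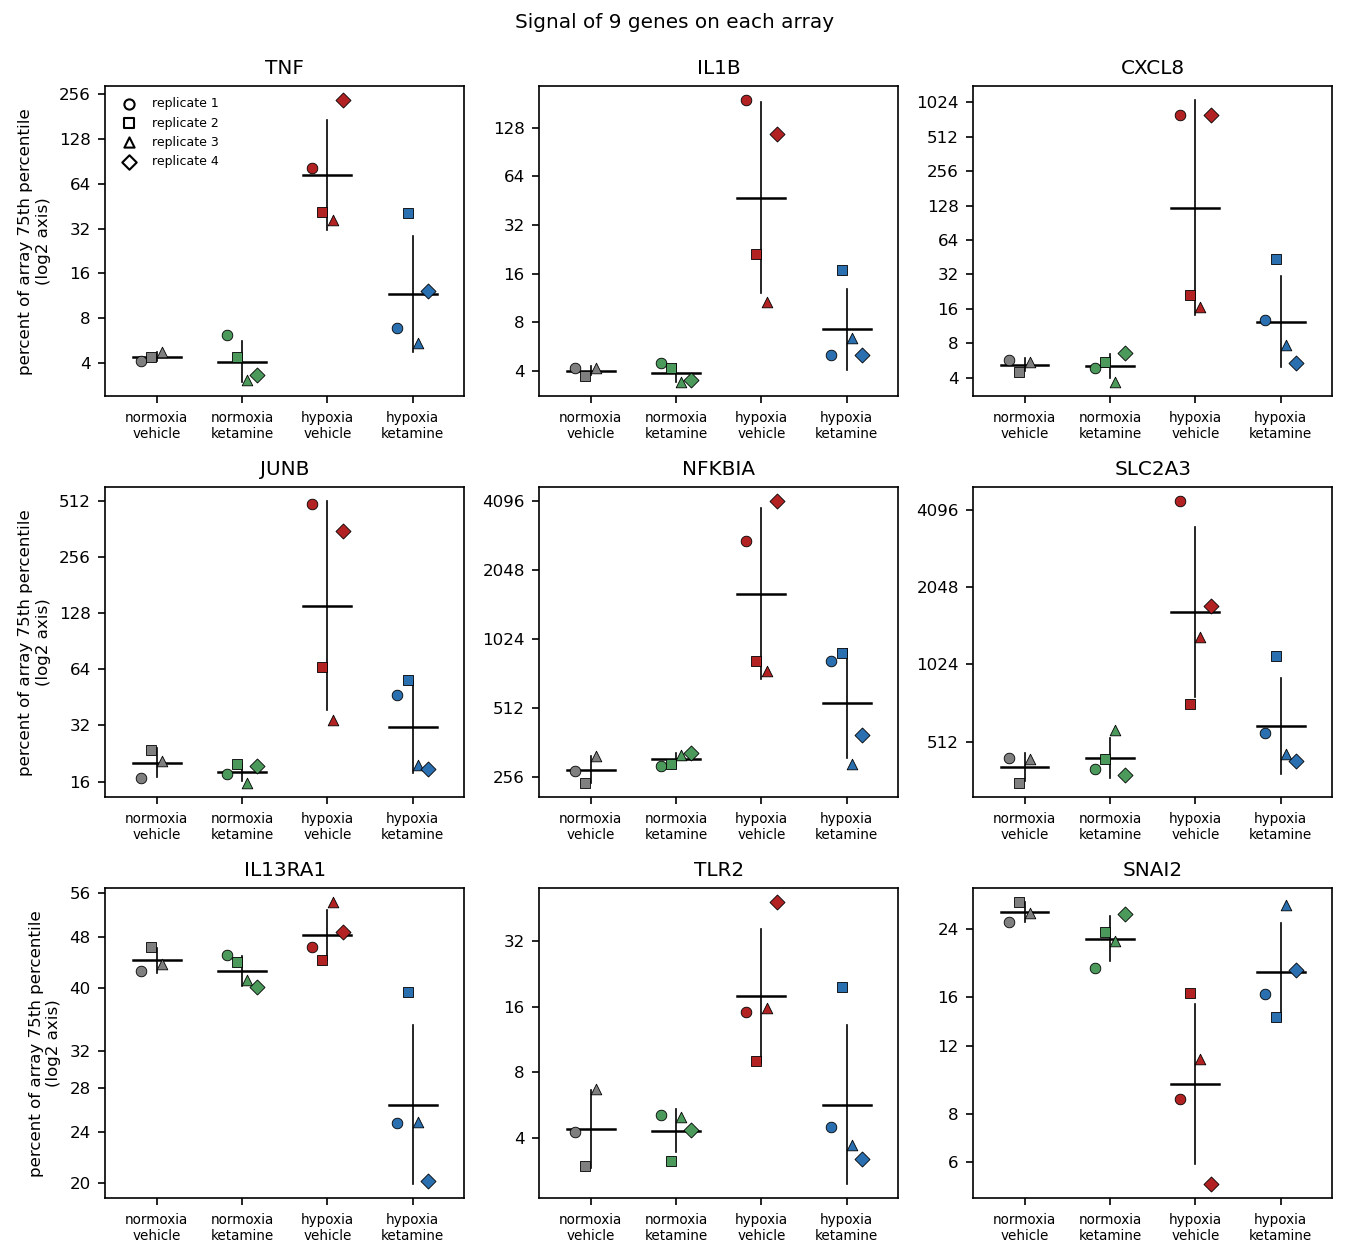
Level of 9 genes on each of the 15 arrays, as a percent of the array's 75th percentile on a log2 axis, by group; symbols mark the replicate, horizontal lines the mean and vertical lines the SD of log2 values. Hypoxia vehicle replicates 1 (circle) and 4 (diamond) are the 2 highest vehicle arrays for TNF, IL1B, CXCL8, JUNB, NFKBIA and SLC2A3, and only IL13RA1 has hypoxic groups that do not overlap.

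Among the cytokines, signals that leukocytes and stressed tissue cells release, 4 of 16 measured genes fell and 0 rose. Of all named genes 5.88% fell, and the gene lists here and below were drawn up with results of these data known. In the cytokine list 13 genes lay lower, with a median of -0.39. That median was 0.036 with normexp, -0.15 without hypoxia vehicle replicate 4, -0.24 without hypoxia ketamine replicate 3 and -0.61 without hypoxia ketamine replicate 2. TNF, an early cytokine of macrophages, read 81.1%, 41.5%, 36.5% and 233% in hypoxia vehicle replicates 1 to 4 and 6.91%, 40.5%, 5.47% and 12.2% in hypoxia ketamine replicates 1 to 4. Ketamine replicates 1, 3 and 4 lay below every vehicle array, and replicate 2 lay among the vehicle arrays. The difference was -2.65 ± 0.62 (unadjusted p = 0.000848 in limma; exact permutation p = 0.0571, two-sided, where the 70 splits of 8 arrays allow no less than 0.0286). In normoxic fetuses TNF read 4.14% to 4.78% with vehicle and 3.09% to 6.20% with ketamine. TNF kept its limma call in each of the 21 other settings of that model, among them slide 1 alone (-2.15) and slide 2 alone (-3.15). These settings share arrays and are not separate tests. Each slide compares 2 ketamine with 2 vehicle arrays, with an SE that also draws on the less variable normoxic arrays.

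IL1B, the secreted interleukin 1 of the inflammasome pathway, read 190%, 21.2%, 10.7% and 117% with vehicle and 5.06%, 16.8%, 6.45% and 5.0% with ketamine. The vehicle arrays were far apart, and only ketamine replicate 2 reached into their range. IL1B fell by 2.71 ± 0.72, by 2.44 within slide 1 and by 2.98 within slide 2, the last not past the threshold. IL1A, its cell-associated relative, fell by 2.40 ± 0.90, but not without hypoxia vehicle replicate 1 (-1.84) or 4 (-1.62). IL1RN, the antagonist that occupies the same receptor, fell as well: it read 40.0%, 13.2%, 11.9% and 65.4% with vehicle and 0.78%, 39.0%, 2.93% and 3.64% with ketamine (-2.58 ± 0.90). As for TNF, ketamine replicate 2 alone sat at vehicle levels. IL1RN was well above background on 3 of the 4 ketamine arrays. It did not pass with normexp, with only the 8 hypoxic arrays, within slide 1 or without replicate 4 of both hypoxic groups.

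IL6, a cytokine that induces acute-phase proteins, did not pass (-3.87 ± 1.83) and was the most uneven of all. It read 239% and 805% in hypoxia vehicle replicates 1 and 4 and 0.94% and 1.03% in replicates 2 and 3, where it was not well above background. With ketamine it read 0.37% to 5.91%, well above background on 3 of 4 arrays. The other 11 cytokines lay between -0.57 (TNFSF13B, which has no value on 1 normoxic array) and 0.52 (IL10).

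Of 6 chemokines, only CXCL8, the main neutrophil attractant, fell. It read 799%, 21.3%, 16.7% and 799% with vehicle and 12.9%, 44.1%, 7.69% and 5.35% with ketamine, a difference of -3.31 ± 1.14. Vehicle replicates 1 and 4 were at the same high level, and replicates 2 and 3 lay within the ketamine range. CXCL8 passed with any 1 array left out (-4.27 to -2.41), but not within slide 1 (-3.09) or slide 2 (-3.54), nor with only the 8 hypoxic arrays (-3.31). CXCL10, an attractant of T cells induced by interferon, differed by -1.38 ± 1.42: it read 592% and 10766.5% in vehicle replicates 2 and 4 and 1363% in ketamine replicate 2, and at most 151% in the other 5 fetuses. The list's median, -0.10, turned positive without hypoxia vehicle replicate 4 (0.033), without hypoxia ketamine replicate 1 (0.0072), and without replicate 4 of both hypoxic groups (0.041).

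All 10 cytokine and chemokine receptors measured lay lower with ketamine, but only IL13RA1 passed. Their median was -0.55, -0.16 with normexp and -0.11 without hypoxia vehicle replicate 4, and without hypoxia ketamine replicate 2 or hypoxia vehicle replicate 3 the count that fell was 4 and 3. IL13RA1, a chain of the receptor through which interleukins 4 and 13 signal, read 46.4%, 44.1%, 54.3% and 48.8% with vehicle and 24.7%, 39.4%, 24.8% and 20.2% with ketamine. The groups did not overlap, a pattern found in 12 of the 833 named genes (1.44%) and in 1.97% of all probes. The difference of -0.87 ± 0.16 had an unadjusted p of 0.000124 in limma and an exact permutation p of 0.0286, the smallest possible with these arrays. The permutation p restates the lack of overlap. In normoxic fetuses it read 42.6% to 46.3% with vehicle and 40.1% to 45.0% with ketamine, so hypoxic vehicle fetuses were close to the normoxic level and hypoxic ketamine fetuses below it. The call held with any 1 array left out (-1.06 to -0.74), but not within slide 1 (-0.72; slide 2, -1.02). The costimulatory receptor CD40 (-1.35 ± 0.89), the death receptor FAS (-0.61 ± 0.76) and CXCR4 (-0.50 ± 0.27) did not pass.

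Of 11 genes of toll-like receptor and NF-kB signalling, 4 fell and 0 rose, where 5.88% of the named genes fell. The median was -0.36, -0.14 without hypoxia vehicle replicate 4 and -0.058 with normexp, where 1 fell. NFKBIA, the inhibitor that NF-kB induces to switch itself off, read 2736%, 822%, 741% and 4087% with vehicle and 819%, 890%, 292% and 392% with ketamine. Ketamine replicates 1 and 2 were close to vehicle replicates 2 and 3, and ketamine replicates 3 and 4 lay nearer the normoxic arrays, at 242% to 326%. The difference was -1.59 ± 0.50, and within the slides -1.63 and -1.54, neither past the threshold. TLR2, a receptor for bacterial lipoproteins, fell by 1.66 ± 0.57, from 9.03% to 48.6% with vehicle to 3.18% to 4.45% in 3 ketamine fetuses and 19.8% in replicate 2.

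MYD88, the adaptor shared by most toll-like and interleukin 1 receptors, fell by 0.47 ± 0.16. TLR4, which senses bacterial lipopolysaccharide, fell by 0.95 ± 0.43, but not without hypoxia vehicle replicate 1 (-1.03) or 4 (-0.48), nor without hypoxia ketamine replicate 1 (-0.87), 3 (-0.78) or 4 (-0.86). With normexp TLR2 (-0.77), TLR4 (-0.53) and MYD88 (-0.09) did not pass. TRAF3, an adaptor of the same receptors that lay on none of the lists, fell by 0.61 ± 0.19 (0.40 without hypoxia vehicle replicate 4) with no overlap: it read 8.59% to 17.5% with vehicle and 6.66% to 8.14% with ketamine. TRAF3 did not pass with normexp or within slide 1. CD14, the lipopolysaccharide co-receptor of monocytes, differed by -0.36 ± 0.29.

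Immediate early genes, which a stimulus switches on directly, without new protein synthesis, were the list with the largest share called. Of these 7 of 9 fell, against 5.88% of the named genes, in a list drawn up with results of these data known. All 9 lay lower, with a median of -1.22, against -0.02 for the named genes. The median was -0.79 without hypoxia vehicle replicate 1 and -0.71 without hypoxia vehicle replicate 4, where 2 and 3 of the 9 fell. JUNB, an AP-1 subunit, read 489%, 65.5%, 34.3% and 353% with vehicle and 46.8%, 56.1%, 19.6% and 18.8% with ketamine. Vehicle replicates 1 and 4 were far above the rest, vehicle replicate 2 was just above the ketamine arrays and vehicle replicate 3 lay among them. The normoxic fetuses read 15.7% to 23.7%. The difference was -2.16 ± 0.69 (-2.23 within slide 1; -2.09 within slide 2, which did not pass).

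FOS, the partner of the JUN proteins, read 2276% and 1699% in vehicle replicates 1 and 4, 121% and 115% in replicates 2 and 3, and 45.4% to 244% with ketamine (-2.04 ± 0.93). ZFP36, which speeds the decay of TNF mRNA, fell by 1.27 ± 0.48, CCN1, a matrix protein of the immediate early class, by 1.37 ± 0.57, MYC by 1.22 ± 0.56 and JUN by 0.52 ± 0.18. JUND, named here after its values were seen, fell by 0.96 ± 0.31. The calls of FOS (-1.29 and -1.43), MYC (-0.75 and -0.85), ZFP36 (-0.91 and -0.83) and CCN1 (-1.16 and -0.71) were lost without hypoxia vehicle replicate 1 or 4, and that of JUN (-0.39) without replicate 1. FOS and MYC also did not pass without hypoxia ketamine replicate 1 (-2.17 and -1.32), 3 (-2.02 and -1.07) or 4 (-1.59 and -1.09), nor did CCN1 without replicate 2 (-1.34) or 4 (-1.25).

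**Figure D2:**
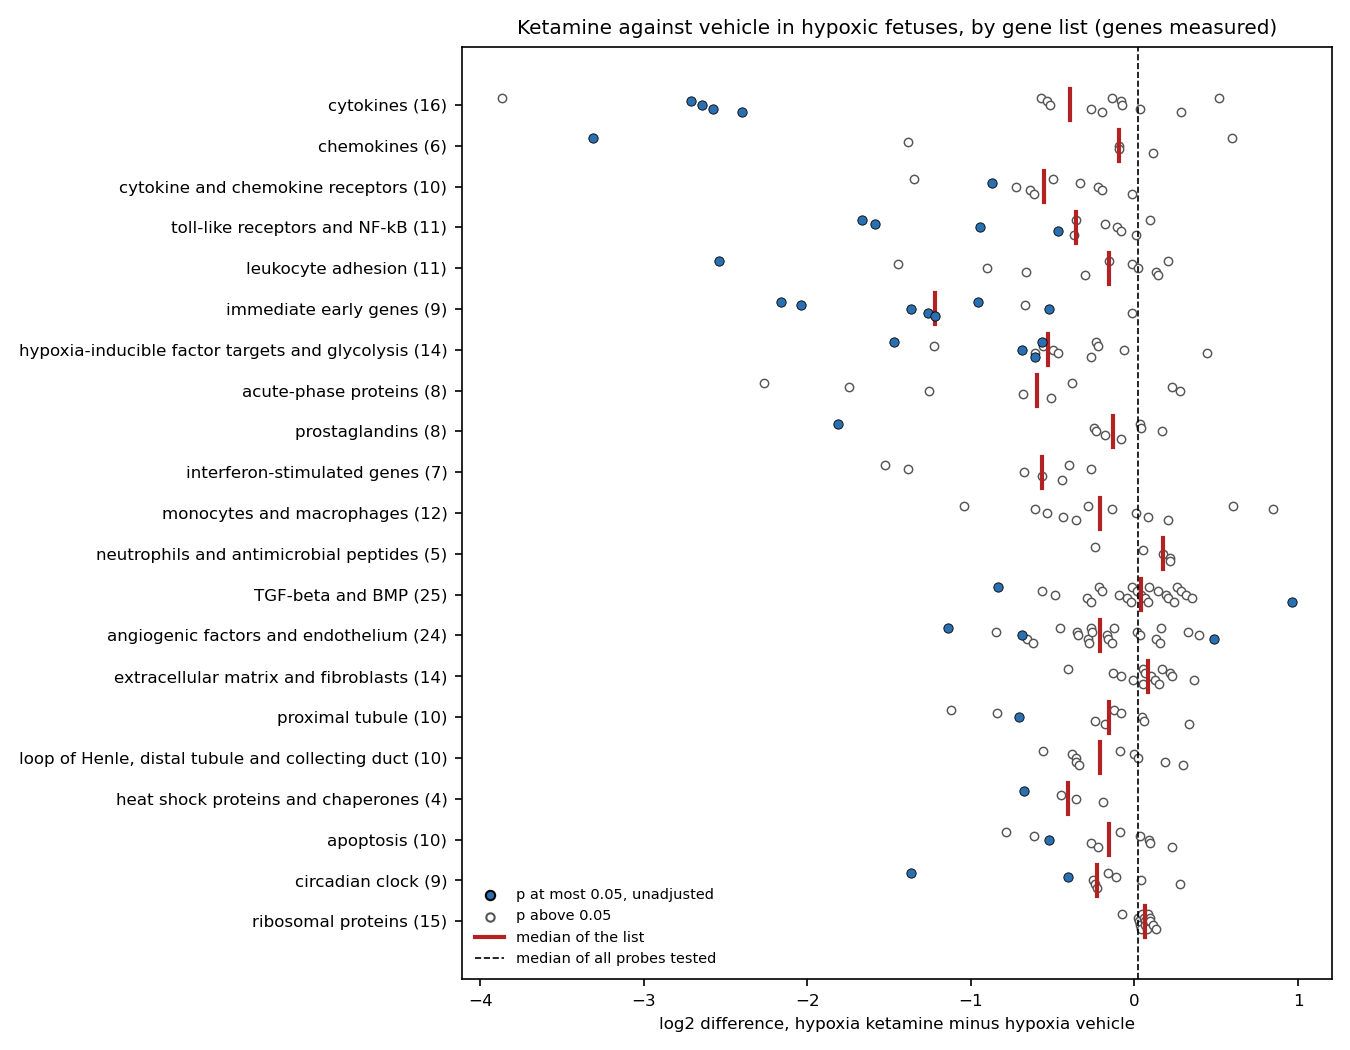
Log2 difference, hypoxia ketamine minus hypoxia vehicle, for each measured gene of the lists shown; filled points have an unadjusted limma p of at most 0.05, red bars are list medians and the dashed line is the median of all probes tested (0.02). Immediate early genes have the lowest median (-1.22) and ribosomal protein genes lie close together around 0.06; with normexp background correction the cytokine median of -0.39 turns to 0.036.

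SELP, the P-selectin that endothelium shows to rolling leukocytes, read 89.2%, 26.3%, 18.3% and 387% with vehicle and 34.6%, 59.9%, 2.55% and 2.74% with ketamine (-2.54 ± 1.06), the only one of 11 adhesion genes to pass (3 fell without hypoxia ketamine replicate 2 or without hypoxia vehicle replicate 2 or 3). The groups overlapped, and the call was lost without hypoxia vehicle replicate 1 (-2.38) or 4 (-1.67) and without hypoxia ketamine replicate 3 (-1.84) or 4 (-1.87). ICAM1, the endothelial ligand of leukocyte integrins, differed by -1.45 ± 0.78 and did not pass. PTGS2, the inducible cyclooxygenase, read 2136% and 2182% in vehicle replicates 1 and 4 and 104% to 181% in all other hypoxic fetuses. Its difference (-1.81 ± 0.84, unadjusted p = 0.0499 in limma) was lost without any 1 of the 4 ketamine arrays (-1.93 to -1.72) or without hypoxia vehicle replicate 1 (-1.12) or 4 (-1.11), and the other 7 prostaglandin genes lay between -0.24 and 0.17.

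Of 12 monocyte and macrophage markers 0 passed in either direction in limma (median -0.21; 0.27 within slide 1, -0.84 within slide 2, where 2 fell, and 0.068 without hypoxia vehicle replicate 3). Without hypoxia ketamine replicate 2, 4 of the 12 fell, with a median of -0.56. With all arrays FCGR1A, the high-affinity Fc receptor, was at -1.04 ± 0.50, CD86, a T cell costimulator, at -0.28 ± 0.39 and FCER1G, an Fc receptor signalling chain, at 0.01 ± 0.36. The mean level of that list, set against all 15 arrays, was -0.23 to 1.61 over the vehicle and -0.26 to 1.67 over the ketamine fetuses, highest in hypoxia vehicle replicate 3 and hypoxia ketamine replicate 2. ITGAM was well above background on only 3 of the 8 arrays. Of 5 neutrophil and antimicrobial peptide genes 0 passed, and their mean level ran from -1.23 to 3.50 with vehicle and from -0.92 to 2.94 with ketamine, with MMP9 well above background on 2 of 8 arrays. Of 6 T and natural killer cell genes 0 passed, and CD4 and CD28 were not well above background on any of the 8.

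The cytokine list was at 0.97, 0.54, 0.61 and 2.29 in hypoxia vehicle replicates 1 to 4 and at -0.15, 1.17, -0.38 and -0.17 in hypoxia ketamine replicates 1 to 4. Ketamine replicate 2 was thus the highest ketamine array for both the cytokine and the monocyte list. The immediate early list was at 1.94 in hypoxia vehicle replicates 1 and 4 and at -0.21 and -0.04 in replicates 2 and 3, and the monocyte list was at -0.23 and -0.02 against 0.98 and 1.61. Interferon-stimulated genes, a read-out of interferon signalling, stood at 5.20 in hypoxia vehicle replicate 4 and 3.54 in hypoxia ketamine replicate 2 and between -0.93 and 0.95 in the other 6 fetuses. None of the 7 measured, MX1 (-0.40 ± 1.32) and ISG15 (-0.56 ± 1.42) among them, passed. The part of cell composition in the differences above was not tested.

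**Figure D3:**
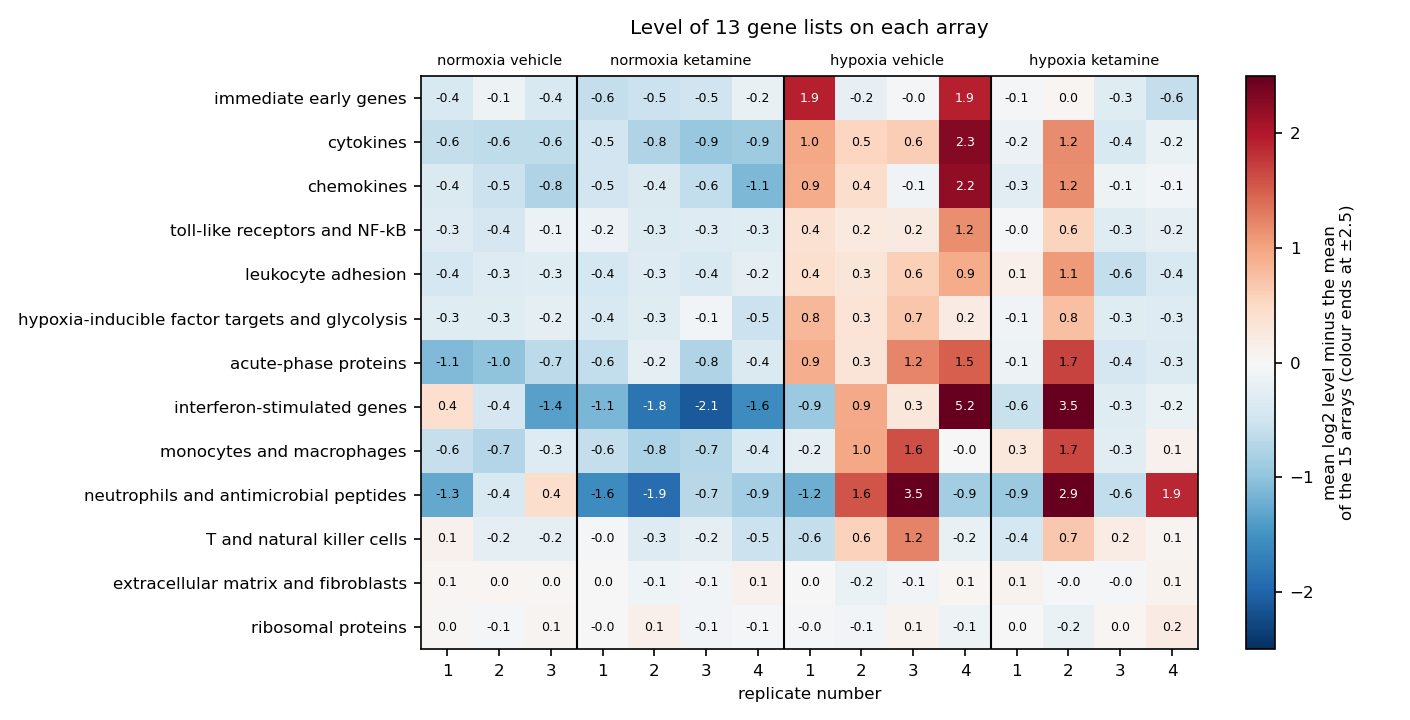
Mean log2 level of 13 gene lists on each array, minus the mean over the 15 arrays; columns are replicates within the 4 groups and colour ends at ±2.5. Immediate early genes are high in hypoxia vehicle replicates 1 and 4 (1.94 each), interferon-stimulated genes in hypoxia vehicle replicate 4 (5.20) and hypoxia ketamine replicate 2 (3.54), and ribosomal protein genes stay between -0.16 and 0.20 on every array.

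Among 14 targets of the hypoxia-inducible factors and glycolytic genes, 4 fell, 0 rose and 13 lay lower, with a median of -0.53. Of the named genes 5.88% fell. In this list 1 fell without hypoxia vehicle replicate 1 and 7 without hypoxia ketamine replicate 2. SLC2A3, a high-affinity glucose transporter, read 4417%, 716%, 1309% and 1731% with vehicle and 554%, 1099%, 459% and 432% with ketamine. Only ketamine replicate 2 was above any vehicle array, and the other 3 lay at the normoxic level of 353% to 569%. The difference was -1.47 ± 0.44, and it was -2.25 within slide 2 but -0.69 within slide 1, which did not pass.

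SLC2A1, the glucose transporter of most cells, fell by 0.61 ± 0.25, HK1, the hexokinase that traps glucose inside the cell, by 0.57 ± 0.20 and VEGFA, the angiogenic factor, by 0.68 ± 0.28. Without hypoxia vehicle replicate 1 none of the 3 passed (-0.49, -0.39 and -0.42). SLC2A1 also did not pass without hypoxia vehicle replicate 3 (-0.42) or hypoxia ketamine replicate 3 (-0.40), nor VEGFA without hypoxia vehicle replicate 3 (-0.52) or hypoxia ketamine replicate 4 (-0.62). Within slide 1 SLC2A1 was 0.039 and VEGFA -0.14, against -1.25 and -1.23 within slide 2, and the list's median was -0.13 and -0.80. Lactate dehydrogenase LDHA (-0.56 ± 0.34), aldolase ALDOA (-0.27 ± 0.16) and HIF1A itself (-0.61 ± 0.37) did not pass.

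Of the acute-phase genes 0 of 8 passed in limma (median -0.59; -0.23 with normexp). Without hypoxia ketamine replicate 2, 4 of the 8 fell, with a median of -0.86. PTX3, a secreted pattern recognition protein, read 9.60% to 233% with vehicle and 1.17% to 100.2% with ketamine (-2.26 ± 1.30). IGFBP1, a hypoxia-induced binding protein of insulin-like growth factors, read 5.48% to 353% and 3.33% to 556%, with full overlap (0.44 ± 1.5). IGF1 (0.22 ± 0.19), the tubular injury marker IL18 (-0.20 ± 0.20) and CYP24, which inactivates vitamin D (-1.12 ± 0.97), did not pass either.

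AGTR1, the main angiotensin II receptor, read 118% to 306% with vehicle and 196% to 392% with ketamine and did not pass (0.58 ± 0.28). The groups overlapped, and the normoxic fetuses read 310% to 445%.

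SNAI2, a repressor of epithelial genes in the mesenchyme, was the largest increase among the genes named by rule. It read 8.73%, 16.4%, 11.1% and 5.26% with vehicle and 16.3%, 14.2%, 27.8% and 18.9% with ketamine, and 19.1% to 28.3% in the normoxic fetuses. Vehicle replicates 1, 3 and 4 were below every ketamine array, and vehicle replicate 2 lay between ketamine replicates. The difference was 0.97 ± 0.29 (0.82 within slide 1, which did not pass, and 1.12 within slide 2). In its list of 25 TGF-beta and bone morphogenetic protein genes it was the only one to rise, and TGFB3, a TGF-beta ligand, the only one to fall (-0.83 ± 0.27). TGFB3 was dim, at 1.57% to 2.47% with vehicle and 0.79% to 1.89% with ketamine, where it was well above background on 2 of 4 arrays, and with normexp it read 0.18.

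FGF7, an epithelial growth factor made by stromal cells, fell by 1.14 ± 0.51, but it lost its call without hypoxia vehicle replicate 1 (-0.57) or 4 (-0.96) and without hypoxia ketamine replicate 1 (-1.0), 2 (-1.21) or 4 (-1.06). FGF10, its relative, rose by 0.49 ± 0.21 and lost its call without hypoxia vehicle replicate 1 (0.41), 2 (0.46) or 4 (0.36) or hypoxia ketamine replicate 1 (0.50), 3 (0.42) or 4 (0.47). These were 2 of the 3 calls among 24 angiogenic and endothelial genes, with VEGFA the other.

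Further genes fell without overlap. BCL2, which protects from apoptosis, fell by 0.52 ± 0.20 (286% to 511% against 235% to 283%), the only one of 10 apoptosis genes to pass, and not without hypoxia vehicle replicate 3 (-0.42) or 4 (-0.37) or hypoxia ketamine replicate 4 (-0.47). UMPS, an enzyme of pyrimidine synthesis, fell by 0.46 ± 0.13 (12.2% to 18.2% against 9.91% to 10.9%). CREB1, a transcription factor activated by cyclic AMP, fell by 0.42 ± 0.13 (13.6% to 20.3% against 11.6% to 13.5%). With PYGL, the glycogen phosphorylase of liver and other tissues, IL13RA1 and TRAF3, these are among the 7 named genes past the threshold with no overlap; over all probes that share was 1.35%. PYGL rose by 0.58 ± 0.22 (129% to 244% against 250% to 307%). It did not pass without hypoxia vehicle replicate 2 (0.49) or 4 (0.40) or hypoxia ketamine replicate 2 (0.52). UMPS and CREB1 did not pass with normexp or within either slide, nor did CREB1 in the authors' deposited values.

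HSPA1A, an inducible heat shock protein, read 779%, 372%, 669% and 829% with vehicle and 363%, 365%, 425% and 436% with ketamine and fell by 0.68 ± 0.22, the only one of 4 chaperones to pass. The gene has a near-identical copy in mammals, so which of them the probe read is uncertain. Of 9 clock genes BHLHE40, a repressor also induced by hypoxia, fell by 1.36 ± 0.60 and CLOCK by 0.41 ± 0.14. BHLHE40 did not pass without hypoxia vehicle replicate 1 (-0.75) or 4 (-1.15) or hypoxia ketamine replicate 3 (-1.38) or 4 (-1.07), and CLOCK did not without hypoxia vehicle replicate 1 (-0.30). SLC9A3, the sodium-proton exchanger of the proximal tubule, was dim (1.93% to 3.68% against 1.18% to 2.06%) and fell by 0.70 ± 0.22, the only one of 10 proximal tubule genes to pass. With normexp it read 0.10 and CLOCK 0.12. Of 10 genes of the distal nephron and collecting duct, 14 of extracellular matrix and fibroblasts, 12 of the insulin-like growth factor axis and 8 glutamate receptors and transporters, 0 passed in limma.

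Of the 11606 probes with no gene name, 5.82% passed; those shown are the 2 largest changes in each direction without overlap. A_70_P059616 read 20.9%, 7.69%, 7.71% and 15.2% with vehicle and 4.61%, 5.07%, 4.77% and 2.99% with ketamine, and fell by 1.46 ± 0.29 (unadjusted p = 0.000244 in limma). A_70_P047916 read 57.7%, 43.6%, 35.2% and 23.5% with vehicle and 86.4%, 79.1%, 70.9% and 114% with ketamine, and rose by 1.18 ± 0.49, while the normoxic fetuses spanned 33.4% to 131% and overlapped both groups. A_70_P051921 fell by 5.24 ± 2.04 through an all-or-none pattern: it read 97.4% to 255% with vehicle, 89.8% in hypoxia ketamine replicate 3 and 1.24% to 2.04% in the other ketamine fetuses. The normoxic fetuses were split the same way, at 202%, 97.7% and 81.4% in 3 of them and 0.52% to 2.09% in 4. A_70_P050081 passed as higher with ketamine, but it was well above background on none of the vehicle and 2 of the ketamine arrays, so no size is given.

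These genes were set beside the effect of ketamine in normoxic fetuses, where 0 of them passed. Of the 32 genes of the panel, 17 passed in hypoxic fetuses (16 lower, 1 higher) and 0 in normoxic ones in limma (2.76% of the named genes passed there), where the median was -0.05 against -1.08; the panel was drawn up with results of these data known. TNF differed by -0.11 ± 0.67, IL1B by -0.05 ± 0.78, JUNB by -0.17 ± 0.74, SLC2A3 by 0.11 ± 0.47 and IL13RA1 by -0.06 ± 0.18 without hypoxia. The pooled variance widens these SEs. The SD of TNF was 0.10 and 0.46 in the normoxic groups, against 1.22 and 1.29 in the hypoxic ones. A normoxic effect of moderate size could therefore fail to pass. VEGFA (-0.43 ± 0.30, not past the threshold) read 226% to 243% with vehicle and 152% to 219% with ketamine in normoxic fetuses. The test of the difference between the effects passed the unadjusted threshold for 7 of the 32, and for 3.6% of the named genes: TNF (-2.53 ± 0.91), IL1B (-2.66 ± 1.06), NFKBIA (-1.74 ± 0.74), SLC2A3 (-1.59 ± 0.64), TLR4 (-1.46 ± 0.63), IL13RA1 (-0.81 ± 0.24) and SNAI2 (1.19 ± 0.42). For JUNB (-1.99 ± 1.01) and CXCL8 (-3.27 ± 1.69) it did not. Of the genes described above that lie outside the panel, it also passed for SLC9A3, TGFB3, FGF10 and PYGL. Genes chosen because they passed in hypoxic fetuses are favoured in this test, since that difference is part of it.

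**Figure D4:**
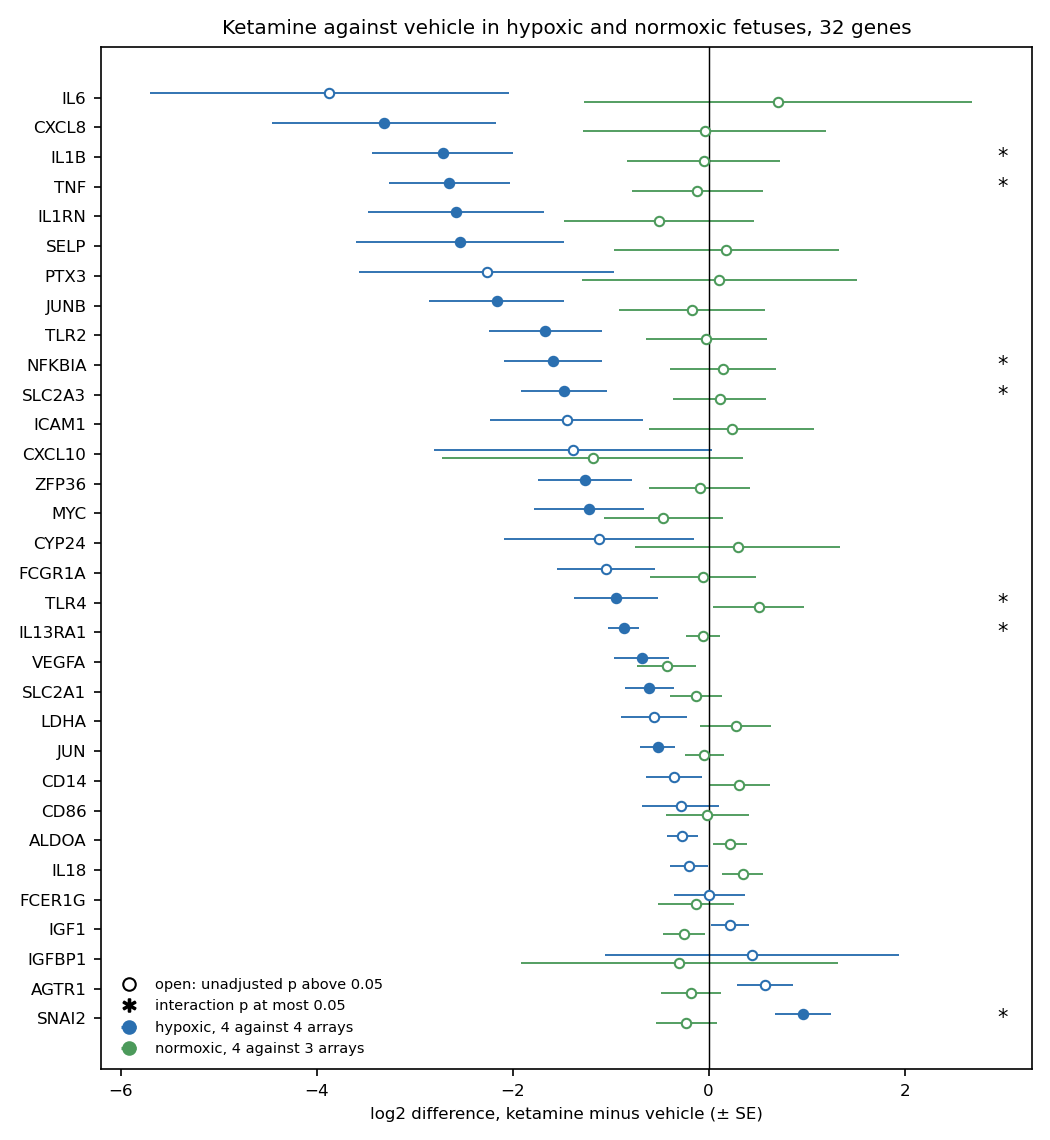
Log2 difference, ketamine minus vehicle, with its SE, for 32 genes in hypoxic (blue) and normoxic (green) fetuses; filled points have an unadjusted p of at most 0.05 and asterisks mark a difference between the effects at that threshold. In hypoxic fetuses 16 genes were called lower and SNAI2 higher, and in normoxic fetuses 0 were called.

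Of the 60 named genes past the threshold, 36 were chosen for display by rule, and 17 of these kept it with each of the 8 hypoxic arrays left out in turn: TNF, IL1B, IL1RN, CXCL8, IL13RA1, NFKBIA, TLR2, MYD88, TRAF3, JUNB, SLC2A3, HSPA1A, UMPS, CREB1, TGFB3, SLC9A3 and SNAI2. Hypoxia vehicle replicate 1 was the array whose removal ended most calls (16), followed by hypoxia vehicle replicate 4 (13) and hypoxia ketamine replicate 4 (12), while leaving out hypoxia vehicle replicate 2 ended 2. No call changed direction. Hypoxia vehicle replicates 1 and 4 were never left out together. Whether the calls of genes high in both, such as CXCL8 and JUNB, would hold without them was not tested. With only the 8 hypoxic arrays in the model, 19 of the 36 passed, TNF, IL1B, IL13RA1, JUNB, NFKBIA, SLC2A3 and SNAI2 among them. By the exact permutation test 7 of the 36 had a two-sided p of at most 0.05. With these arrays only a gene whose groups do not overlap can reach that. These are the 7 called genes without overlap, which the rule chose for that trait, so the count adds no support. The exact permutation p was 0.0571 for IL1B and SLC2A3, 0.0857 for SNAI2, 0.114 for CXCL8 and JUNB, 0.143 for NFKBIA, 0.20 for SELP and 0.40 for PTGS2.

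**Figure D5:**
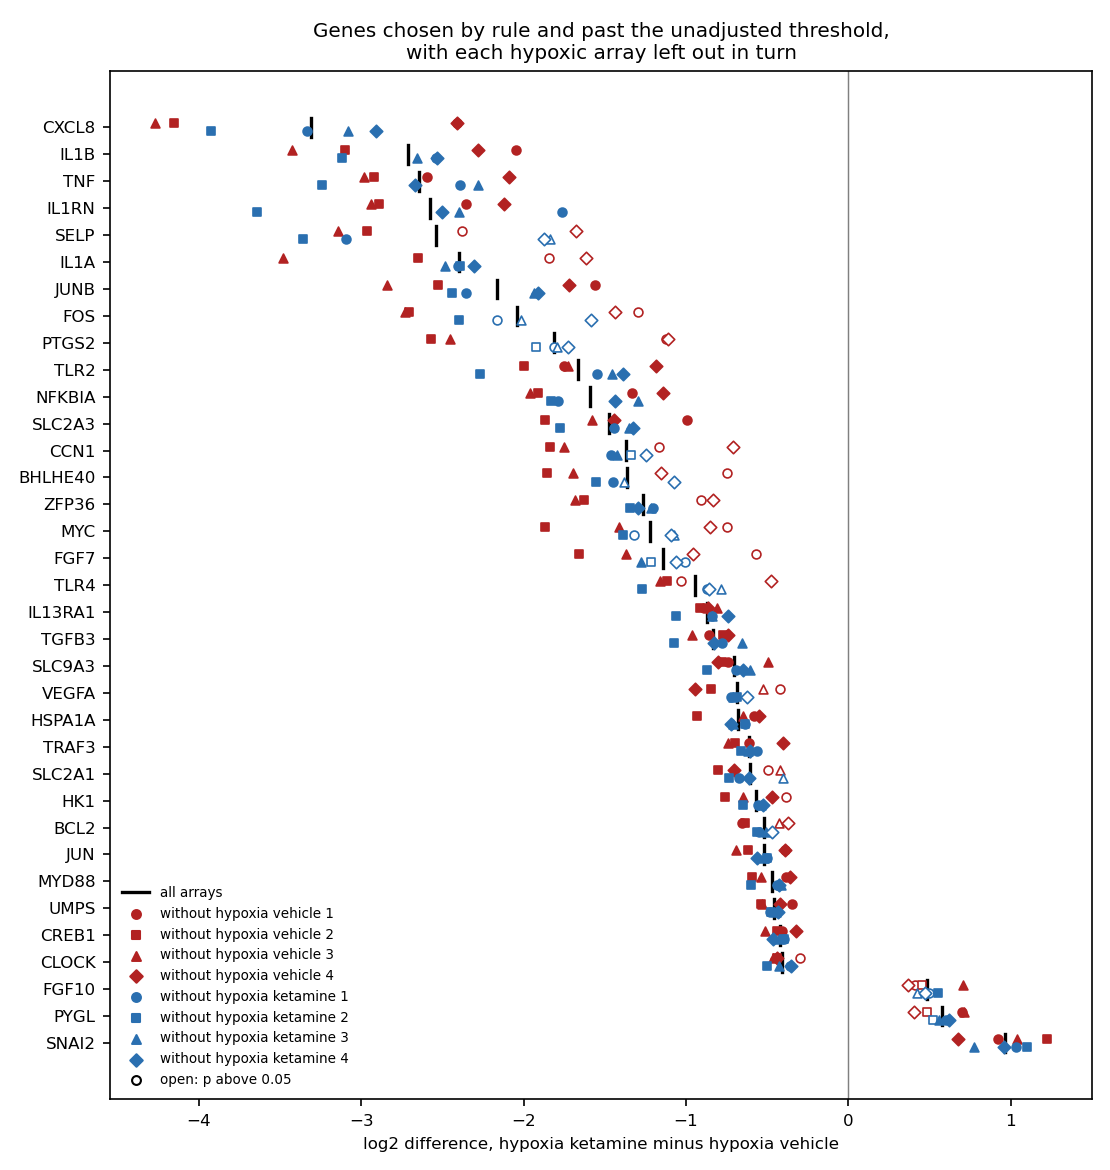
Log2 difference, hypoxia ketamine minus hypoxia vehicle, of genes chosen for display by rule and past the unadjusted threshold, with all arrays (black bar) and with each hypoxic array left out in turn (symbols; open where p was above 0.05). Leaving out hypoxia vehicle replicate 1 or 4 moves CXCL8 from -3.31 to -2.41, and IL13RA1 stays between -1.06 and -0.74.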

How the data were processed

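RNA from fetal kidney cortex was hybridised to 15 single-colour Agilent ovine arrays, each taken as 1 fetus. The deposited scanner files, made with Feature Extraction 10.1.1.1 per the file headers, give each spot's background-corrected intensity. The log2 value table deposited by the authors, whose normalization is not given in the sources used here, served only as an alternative: 12 of its 15 columns tracked another array of their own group most closely, so replicates are numbered as in the scanner files. The series' design text names limma and a p of at most 0.05.

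Each array's log2 intensity was set against its own 75th percentile, control spots and outlier spots were left out, and spots of a probe were averaged. Probes well above background on at least 3 arrays (12923 of 15008) entered 1 limma model (limma 3.58.1 in R 4.3.3; Python 3.11.15) with a mean per group for all 15 arrays and 3 comparisons, adjusted by Benjamini-Hochberg over all probes. The number of arrays limits the precision. A gene was named from the array's annotation or RefSeq for 1578 probes (10.5%), which gave 833 tested genes. The model was tested on simulated data with independent arrays and 1 SD per probe for all groups. The real spread was wider after hypoxia, so that test does not give the error rate in these data.

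The gene lists, the members and the settings were chosen with earlier results of these data known. Genes were named by rule: a panel of 32; the largest changes without overlap; up to 4 called genes per list; 4 unnamed probes. CD40, FAS, CXCR4, HIF1A, MX1, ISG15, TNFSF13B, IL10 and the tissue and leukocyte markers outside the panel were added after their values were seen. Replicate numbers do not pair fetuses: matched deviations correlated at 0.37, -0.06, -0.03 and -0.29. The alternatives were quantile normalization, normexp with an offset of 50, other filters, the hypoxic arrays alone, slide as a block and within slides, a replicate block, the deposited table, array weights, and arrays left out. An exact permutation test was added after seeing the data. A called gene is counted but not reported here.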

Additional observations from a re-analysis of the deposited data

Results flagged for a closer look

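In 11 of the 51 genes chosen for display by rule, the effect of ketamine in hypoxic fetuses differed from that in normoxic fetuses by limma's interaction test (p of at most 0.05, not adjusted). The difference between the effects (log2) was -2.66 for IL1B, -2.53 for TNF, -1.74 for NFKBIA, -1.59 for SLC2A3, -1.46 for TLR4, -0.997 for SLC9A3, -0.992 for TGFB3 and -0.813 for IL13RA1. It was 1.19 for SNAI2, 0.762 for FGF10 and 0.729 for PYGL. None passed after adjustment over all probes (smallest adjusted p = 0.989 in limma), and 3.15% of all probes passed unadjusted. Of the 51 genes, 36 had passed in hypoxic fetuses, and that difference is part of the interaction. The choice of genes therefore raises the share that passes, and the 2 shares cannot be compared as a test.

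In 2 of 102 groups of arrays tested, 1 array stood apart from the others of its group by Dixon's criterion, which chance meets in about 1 in 20 groups. CLOCK read 4.91% in hypoxia vehicle replicate 1 and 3.51% to 3.70% in the other vehicle fetuses. MYD88 read 11% in hypoxia ketamine replicate 2 and 7.5% to 7.86% in the other ketamine fetuses.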

How the results depend on the processing

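The count of 785 probes was 399 with normexp, 431 with the 8 hypoxic arrays alone, 276 within slide 1, 1460 without the arrays with placental lactogen and 487 without replicate 4 of both hypoxic groups; leaving out 1 array gave 486 (hypoxia ketamine replicate 4) to 1606 (hypoxia ketamine replicate 2). The adjusted count of 0 was 2 within slide 2, 1 without the lactogen arrays and 0 to 3 with 1 array left out. The count of 407 for the ketamine effect in hypoxic minus that in normoxic fetuses was 198 with normexp, 229 within slide 1, 912 with array weights, 713 without the lactogen arrays and 239 to 986 with 1 array left out, and the normoxic count of 350 was 113 with normexp and 1007 with array weights. The cytokine median was 0.036 with normexp, the chemokine median 0.041 without replicate 4 of both hypoxic groups and -0.22 to 0.033 with 1 array left out (0.0072 without hypoxia ketamine replicate 1), and the median of hypoxia-inducible factor targets -0.13 within slide 1. Signs turned for CLOCK (0.12), SLC9A3 (0.10) and TGFB3 (0.18) with normexp and for SLC2A1 (0.039) within slide 1; all 3 of the former are dim. Of the 36 called genes chosen for display by rule, 33 kept the call with quantile normalization, 31 with slide as a block, 27 of 34 in the authors' deposited values, 21 with normexp, 16 within slide 2 and 6 within slide 1, where fewer arrays were tested; the cause of the other changes was not tested.

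With a replicate block, 738 probes passed; BHLHE40, FOS, PTGS2 and TLR4 lost their calls. The numbers are names and do not pair the fetuses.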

Other observations

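The genes below lay outside the rule for named genes and were picked after their values were seen, from the called genes on none of the lists. AREG, an epidermal growth factor receptor ligand that was well above background on 2 of the 4 ketamine arrays, fell by 2.38, RGS2, a brake on G protein signalling, by 1.03, the transcription factor ETS2 by 1.01, the small GTPase RHOB by 0.97 and the gap junction gene GJB2 by 0.78. Among increases, the neuropeptide gene ADCYAP1 rose by 1.42, the Wnt receptor gene FZD2 by 0.61, the lectin gene LGALS1 by 0.51 and BCAT2, a mitochondrial enzyme of branched-chain amino acid breakdown, by 0.47. RGS2, RHOB, GJB2, FZD2 and BCAT2 kept the call with any 1 hypoxic array left out, and AREG, ETS2, LGALS1 (4 of 8 arrays each) and ADCYAP1 (3 of 8) kept it for only some. All are unadjusted limma calls, against 5.88% of named genes lower and 1.32% higher.

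Of the glutamate receptors and transporters, the family that holds the drug's target, 8 of 15 genes on the array could be tested, with a median of 0.10 and a range of -0.33 to 0.43. GRIN1, the obligate NMDA receptor subunit, was not well above background on enough arrays to be tested.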
